A study of Homo sapiens with 12 samples.

Results

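The genes described here are 10 secreted or cell-surface products of mucosal defence and of the acute-phase response: PIGR, MUC1, LCN2, SLPI, PI3, SAA1, SAA2, LRG1, C3 and CFB. They were matched by gene name in the tables of 2 cell lines, which list 29657 genes for SCC15 and 31055 for SCC25. The members were chosen on their values in these same libraries, with squamocin set against DMSO. Their levels and fold changes are therefore given as a description, with no test. All 10 were listed in both tables. A mean of at least 10 normalized counts was required for the fit across genes, and 9 members passed in SCC15 and 10 in SCC25. The member that did not pass was PIGR in SCC15.

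SCC15 and SCC25 are established lines of head and neck squamous cell carcinoma, labelled as wild type. Both were treated for 24 h with squamocin at 10 µg/mL, or with the solvent DMSO, and each of the 4 groups holds 3 libraries (12 in all). The sample labels call the treatment ACGs, the annonaceous acetogenins, which are the class of plant compounds that squamocin belongs to. For each library, the authors divided the reads of a gene by a single size factor, which they set separately for either line. Such values are called normalized counts below.

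Mucosal epithelia release a set of proteins that bind, starve or opsonize microbes and that limit damage by the proteases of neutrophils. Many of these genes are induced by interleukin-1, TNF, IL-17 and interleukin-6 through the transcription factors NF-κB, C/EBP and STAT3. The same signals drive the acute-phase response of the liver, and some acute-phase proteins are also made by epithelia.

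The libraries held 16665563 to 22748845 recovered reads on genes. The squamocin library of SCC15 numbered 3 stood apart, with a chi-square per degree of freedom of 71.6 and 63.5 against the other squamocin libraries of that line, where the other pairs of libraries within a group gave 1.72 to 11. The fold changes of the members in SCC15 are also given without it. Of 12 squamous markers, 6 reached a mean of 10 in SCC15 and 11 did so in SCC25. The squamous keratin KRT5 and the squamous regulator TP63 were low in SCC15, with means of 9.50 and 17.5 normalized counts in DMSO. The whole squamous list summed to 115350 to 121686 normalized counts per DMSO library in SCC15 and 24249 to 24854 in SCC25. Of 10 hepatocyte markers, 0 reached a mean of 10 in either line, and the whole list summed to 0.791 to 11.2 normalized counts per library in SCC15 and 0.806 to 10.2 in SCC25. Of 12 leukocyte markers, 3 reached that mean in SCC15 and 5 in SCC25. The leukocyte list summed to 2108 to 2246 in the DMSO libraries of SCC15 and 3971 to 4859 in the squamocin libraries. In SCC25, it summed to 179 to 188 and 502 to 580. The fit called 1 leukocyte gene up and 1 down in SCC15. It called 3 up and 0 down in SCC25. There, LST1 went from 5.37 to 71.7 normalized counts and CSF1R from 35.6 to 58.5 (both named after their values were seen). The rises of LST1 and CSF1R are smaller than that of the sum in SCC25, and the other called gene is not named here. A sum can be set by a single gene, so the sums do not show a rise across the leukocyte list in either line. ITGAM of the same list was at 63.3 ± 3.57 (DMSO) and 72.8 ± 8.11 (squamocin) in SCC25 (SD, n = 3). Its groups overlapped, and it was not called (limma adjusted p = 0.291). The general leukocyte marker PTPRC was near the floor in SCC15, with means of 3.05 (DMSO) and 0.773 (squamocin). PTPRC was not listed in SCC25. The libraries are of cultured carcinoma lines, and the source of the reads of these leukocyte-list genes was not tested. In bulk RNA, fewer cells of a type cannot be told apart from less RNA per cell.

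In SCC15, 4 members were called higher with squamocin (CFB, PI3, SLPI and LCN2) and 2 lower (LRG1 and SAA2), and 3 were not called. Among all 15902 genes tested there, 30.9% were called higher and 30.0% lower, by limma at an adjusted p of 0.05. In SCC25, 1 member was called higher (CFB) and 9 lower, where 38.3% and 38.5% of the 16539 genes tested were called. Since the members were chosen on this contrast, nothing is read from these counts. The libraries of the treatments did not overlap for 7 of 9 members in SCC15 and 10 of 10 in SCC25, against 70.6% and 79.0% of all genes tested. The median log2 fold change of the members was -0.16 in SCC15 and -1.29 in SCC25, and that of all genes tested was 0.01 and -0.01. These counts depend on the scaling. With library totals made equal, the median of all genes moved by -0.49 in SCC15 and by -0.21 in SCC25, and the calls over all genes went from 4921 higher and 4773 lower to 2357 and 8032 in SCC15, and from 6335 and 6367 to 5032 and 7839 in SCC25. The split of the members in SCC15 went from 4 and 2 to 4 higher and 5 lower, and that of SCC25 stayed at 1 and 9. Without the third squamocin library of SCC15, the split in that line was also 4 higher and 5 lower, with SAA1, C3 and MUC1 added to the lower members.

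**Figure D1:**
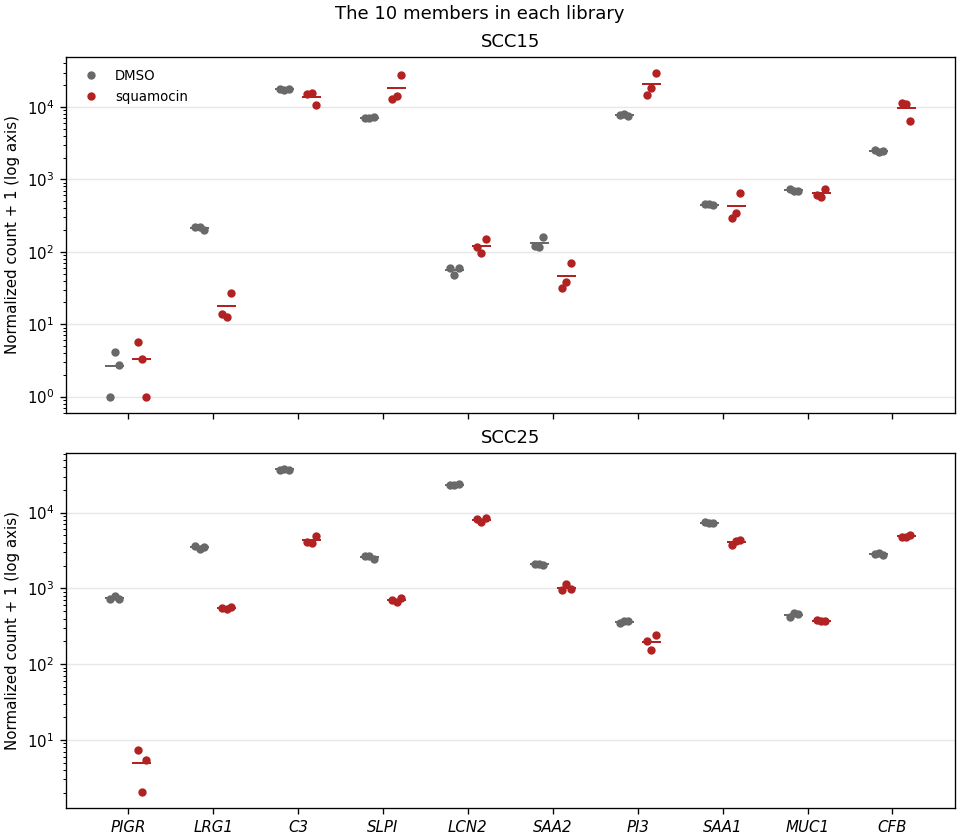
Normalized count plus 1 (log axis) of the 10 members in each of the 12 libraries, with DMSO in grey and squamocin in red, points for libraries and short bars for group means. In SCC25, CFB is the member with squamocin above DMSO, and PIGR with squamocin lies at 1.04 to 6.36 normalized counts. In SCC15, SLPI, PI3, LCN2 and CFB lie higher with squamocin and LRG1 and SAA2 lower.

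PIGR encodes the polymeric immunoglobulin receptor, which carries IgA and IgM across epithelia and is released as secretory component. In SCC25, the DMSO libraries held 734, 793 and 733 normalized counts of PIGR and the squamocin libraries 6.36, 1.04 and 4.44. These last values are 5, 1 and 4 reads, against 828 to 911 reads in each DMSO library. All squamocin libraries lay below all DMSO libraries. The ratio of the summed reads, adjusted for the size factors, was 199-fold lower with squamocin, with a 95% exact interval of 108 to 416 that covers counting error only. On the log2(normalized count + 1) scale, the difference was -7.44 ± 0.36 (SE), and it was -5.79 with a pseudocount of 10, so that its size on this scale depends on the pseudocount. In SCC15, the gene had 0 to 4 reads in every library, 6 reads in all with DMSO and 6 with squamocin, and no fold is given. PIGR lies on chromosome 1 (206928518 to 206946466, minus strand, GRCh38) as listed in the tables. The 250 bases before its start in RefSeq (GRCh38.p14, chr1:206946467-206946716, minus strand) are shown because this gene had the largest difference of the members; in them and in the 50 bases that follow, none of the 3 motifs described below was found.

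PIGR: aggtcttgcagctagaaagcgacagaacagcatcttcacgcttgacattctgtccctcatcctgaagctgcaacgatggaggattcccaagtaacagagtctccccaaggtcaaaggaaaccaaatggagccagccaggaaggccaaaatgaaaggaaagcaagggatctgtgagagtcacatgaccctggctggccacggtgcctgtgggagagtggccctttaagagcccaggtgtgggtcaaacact

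MUC1 encodes a transmembrane mucin of the apical cell surface. It lies on chromosome 1 (155185824 to 155192916, minus strand). In SCC15, it was at 737, 697 and 697 normalized counts with DMSO and 606, 577 and 734 with squamocin, and the groups overlapped. In SCC25, the values were 421, 477 and 453 with DMSO and 384, 371 and 370 with squamocin, with no overlap. The log2 fold changes were -0.16 ± 0.11 (SE) in SCC15 and -0.26 ± 0.07 in SCC25. The SCC15 value was -0.26 without the third squamocin library. The difference between the lines was 0.10 ± 0.13, a difference smaller than its error.

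LCN2 encodes lipocalin 2, which binds bacterial siderophores and so withholds iron. The gene is on chromosome 9 (128149071 to 128153455, plus strand). Its level differed between the lines: the recovered reads, scaled as CPM, were 3.51 ± 0.44 (SD, n = 3) in the DMSO libraries of SCC15 and 1280 ± 19.8 in those of SCC25, in tables that were normalized separately. In SCC15, LCN2 was at 58.0, 46.6 and 58.5 normalized counts with DMSO and 117, 94.6 and 149 with squamocin. In SCC25, it was at 23285, 23156 and 23770 with DMSO and 8211, 7515 and 8434 with squamocin. Every squamocin library was higher than every DMSO library in SCC15 and lower in SCC25. On the log2 scale, the fold changes were 1.11 ± 0.21 and -1.54 ± 0.04, and their difference was 2.65 ± 0.19. The SCC15 value was 0.95 without the third squamocin library. The SCC15 value rests on 59 to 68 reads per library with DMSO and 83 to 120 with squamocin.

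SLPI and PI3 encode secretory leukocyte protease inhibitor and elafin, which block neutrophil elastase and carry WAP domains. The genes lie 75694 bases apart in the WFDC cluster on chromosome 20 (SLPI 45252239 to 45254564, minus strand, and PI3 45174876 to 45176544, plus strand). SLPI was at 7091, 7166 and 7219 normalized counts with DMSO in SCC15 and at 13070, 14205 and 27541 with squamocin. PI3 was at 7658, 8010 and 7432 with DMSO and at 14509, 18303 and 29372 with squamocin. Both were higher in all 3 squamocin libraries, and their highest values came from the library that stood apart. In SCC25, SLPI was at 2663, 2662 and 2427 with DMSO and 709, 667 and 737 with squamocin. PI3 was at 351, 370 and 366 with DMSO and 198, 153 and 241 with squamocin. Both were lower in all squamocin libraries of SCC25. The log2 fold changes of SLPI were 1.27 ± 0.26 in SCC15 and -1.87 ± 0.06 in SCC25, a difference of 3.14 ± 0.28. Those of PI3 were 1.37 ± 0.24 and -0.90 ± 0.14, a difference of 2.26 ± 0.29. Without the third squamocin library of SCC15, the log2 fold changes in that line were 0.93 for SLPI and 1.08 for PI3.

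The neighbours of SLPI and PI3 in the cluster were mostly near 0. Among them, WFDC2, which encodes the WAP protein HE4, went the same way as SLPI and PI3. It rose from 1063 ± 37.8 to 2265 ± 661 normalized counts in SCC15 and fell from 7548 ± 36.1 to 3393 ± 97.4 in SCC25 (SD, n = 3; limma adjusted p = 0.00206 and 4.97e-11). The difference of its log2 fold changes was 2.21 ± 0.20 (adjusted p = 1.90e-06). WFDC3 was higher in SCC15 (18.0 and 52.1, adjusted p = 0.0151), and WFDC5 was higher in SCC25 (30.4 and 76.2). WFDC12, WFDC13, SEMG1 and EPPIN were listed with at most 5 reads in any library.

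**Figure D2:**
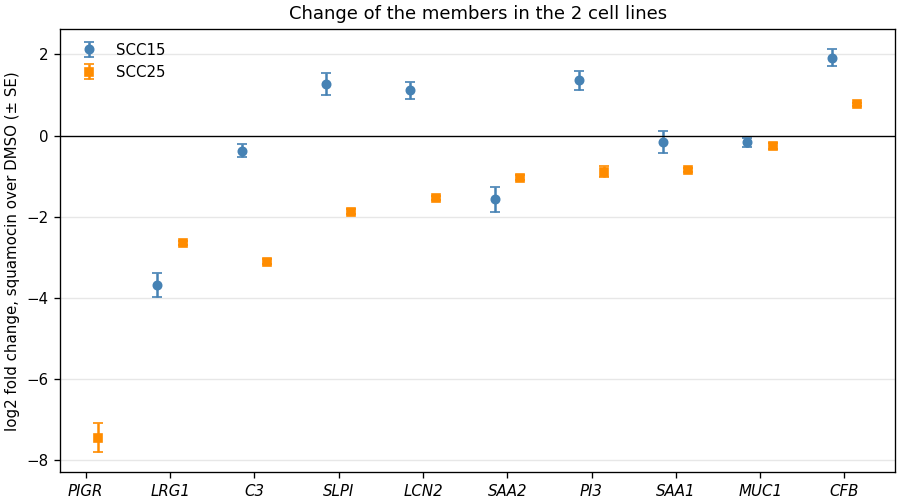
Log2 fold change of squamocin over DMSO for the members in SCC15 (blue circles) and SCC25 (orange squares), with the SE of the fit across all genes. SLPI, LCN2 and PI3 lie above 0 in SCC15 and below 0 in SCC25, CFB lies above 0 in both, and PIGR has a value in SCC25 alone, at -7.44.

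SAA1 and SAA2 encode the acute-phase serum amyloid A proteins. They are near-identical copies 17530 bases apart on chromosome 11 (SAA1 18266174 to 18269977, plus strand, and SAA2 18239223 to 18248643, minus strand), so that reads could be assigned to either, and how the counting treated reads that match both is not given in the sources used here. SAA1 was at 456, 450 and 439 normalized counts with DMSO in SCC15 and at 290, 340 and 651 with squamocin, and the groups overlapped. SAA2 was at 119, 115 and 161 with DMSO and at 30.1, 37.6 and 69.7 with squamocin, all lower. In SCC25, SAA1 went from 7423, 7294 and 7228 to 3758, 4159 and 4356, and SAA2 from 2123, 2078 and 2057 to 955, 1129 and 966. Both were lower in all 3 squamocin libraries of SCC25. The log2 fold changes of SAA1 were -0.16 ± 0.27 in SCC15 and -0.84 ± 0.05 in SCC25, and those of SAA2 were -1.57 ± 0.31 and -1.04 ± 0.06. Without the third squamocin library, SAA1 was at -0.51 and SAA2 at -1.92 in SCC15. SAA4 of the same cluster fell in SCC25 by 1.03 ± 0.23 on the log2 scale (limma adjusted p = 0.00139) and had at most 6 reads per library in SCC15. The read-through SAA2-SAA4 had at most 8 reads in any library.

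The ratio of SAA1 to SAA2 reads within a library does not depend on its scaling. In SCC15, the DMSO libraries gave 3.50 ± 0.68 and the squamocin libraries 9.33 ± 0.29 (SD, n = 3). In SCC25, these were 3.51 ± 0.01 and 4.04 ± 0.42. The squamocin libraries had the higher ratio in both lines, with no overlap.

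LRG1 encodes leucine-rich alpha-2-glycoprotein 1, an acute-phase protein that modifies TGF-β signalling. The gene is on chromosome 19 (4536409 to 4540474, minus strand). It was the member with the lowest fold change in SCC15. The DMSO libraries of SCC15 held 220, 222 and 201 normalized counts and the squamocin libraries 12.8, 11.4 and 26.1, the latter from 11, 10 and 21 reads. In SCC25, the values were 3573, 3350 and 3487 with DMSO and 548, 536 and 571 with squamocin. All squamocin libraries were below all DMSO libraries in both lines. As log2 fold changes, these were -3.69 ± 0.30 and -2.65 ± 0.05, a difference of -1.04 ± 0.30. Without the third squamocin library, which had the highest LRG1 of its group, the value in SCC15 was -4.04. An overlapping read-through transcript on the same strand, AC011498.4, was at 2.83 and 0.386 normalized counts in SCC15 and fell from 19.6 to 5.79 in SCC25 (limma adjusted p = 0.00782).

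The promoters of 5 members were matched in RefSeq (GRCh38.p14): PIGR, MUC1, LCN2, LRG1 and CFB. SAA1, SAA2, SLPI, PI3 and C3 were not matched. Both strands of the 250 bases before and 50 after each start were searched for TTNNGNAA (C/EBP), TTCNNNGAA (STAT) and the κB consensus. Of 35116 promoters of this length, 36.8% held the first, 7.66% the second and 5.91% the κB consensus. LRG1 held 1 match of each, LCN2 a C/EBP and a κB match, CFB a STAT match, and MUC1 none. Windows of 28 bases around the matches are shown, since these are the factors named above as drivers of such genes, with the matched letters in capitals. LRG1 is on the minus strand (chr19:4540174-4540201 and chr19:4540094-4540121), LCN2 on the plus strand (chr9:128149269-128149296 and chr9:128149300-128149327), and CFB on the plus strand (chr6:31945994-31946021). These stretches lie before the RefSeq start, but inside the spans that the tables list for LRG1, LCN2 and CFB. The stretches before the starts of LCN2, CFB and MUC1 also overlap annotated exons of the same gene, and that of LRG1 an exon of the read-through AC011498.4. A match is a run of letters and was not tested as a site.

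LRG1, STAT and C/EBP: aatTTCCAGGAAgcaaTTTTGTAAtcct

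LRG1, κB: acgggggtgGGGACTTCCCcagggttgg

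LCN2, κB: agcactccgGGAATGTCCCtcactctcc

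LCN2, C/EBP: tccctctgtcTTGCCCAAtcctgaccag

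CFB, STAT: gcttggatgTTCCGGGAAagtgatgtgg

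C3 encodes the central component of complement, and CFB encodes factor B, a protease of its alternative pathway, which acts together with C3b. C3 lies on chromosome 19 (6677704 to 6730562, minus strand) and CFB on chromosome 6 (31945650 to 31952084, plus strand). C3 was at 17950, 16962 and 17850 normalized counts with DMSO in SCC15 and at 15067, 15594 and 10701 with squamocin. These squamocin libraries lay below all DMSO libraries, but the gene was not called. In SCC25, it went from 36931, 37972 and 36999 to 4096, 3985 and 4935. The log2 fold changes were -0.37 ± 0.16 and -3.11 ± 0.07, and the difference between the lines was 2.74 ± 0.18. CFB was the only member higher with squamocin in both lines. It went from 2523, 2366 and 2484 to 11280, 11098 and 6390 in SCC15 and from 2873, 2962 and 2781 to 4821, 4811 and 5071 in SCC25. The log2 fold changes were 1.92 ± 0.21 and 0.77 ± 0.04, a difference of 1.15 ± 0.23. Without the third squamocin library, which had the lowest CFB and C3 of the group, those of SCC15 were 2.19 for CFB and -0.20 for C3.

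The ratio of CFB to C3 reads was higher with squamocin in all libraries of both lines. In SCC15, the DMSO libraries gave 0.140 ± 0.001 and the squamocin libraries 0.686 ± 0.079 (SD, n = 3). In SCC25, these were 0.0770 ± 0.0016 and 1.14 ± 0.10, again with no overlap. C2, which encodes a protease of the classical pathway and overlaps the first 23 bases of CFB on the same strand, rose in both lines. It went from 207 ± 15.3 to 423 ± 79.3 in SCC15 and from 272 ± 11.6 to 513 ± 11.3 in SCC25 (limma adjusted p = 0.000941 and 1.59e-07). GPR108, which overlaps the start of C3 on the same strand, rose as well, from 1234 to 1773 in SCC15 and from 1831 to 2204 in SCC25.

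**Figure D3:**
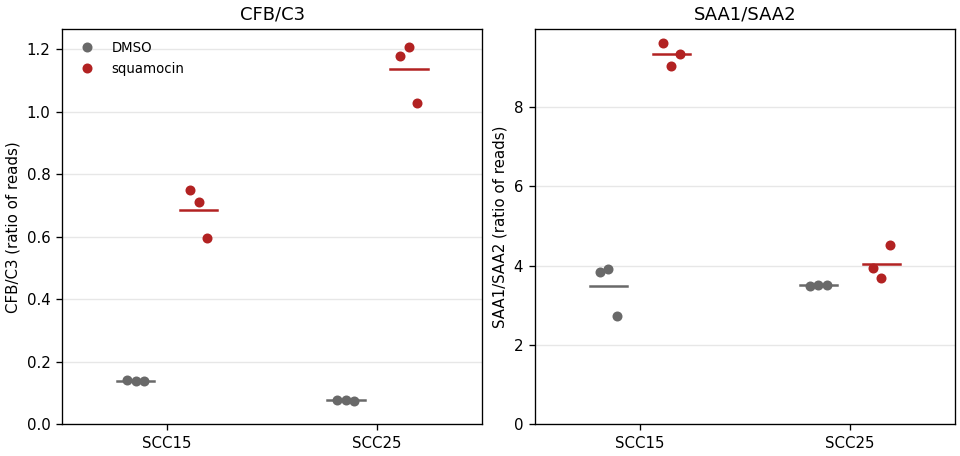
Ratio of reads of CFB to C3 (left) and of SAA1 to SAA2 (right) in each library, with DMSO in grey and squamocin in red and bars for the means. The CFB to C3 ratio lies between 0.0752 and 0.141 in all DMSO libraries and between 0.597 and 1.21 in all squamocin libraries, and the SAA1 to SAA2 ratio reaches 9.03 to 9.62 with squamocin in SCC15.

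Compared per length, as recovered reads per kilobase of exon after scaling to the reads of the library (RPKM, exons of GENCODE 44 merged over transcripts), the order of levels in DMSO differed between the lines. In SCC15, it was led by PI3 (901 ± 32.2) and SLPI (775 ± 8.07), followed by C3 (98.0 ± 3.19) and CFB (29.8 ± 1.03), with PIGR last (0.0241). In SCC25, it was led by LCN2 (802 ± 12.4) and SAA1 (377 ± 4.17), followed by SLPI (237 ± 12) and C3 (176 ± 2.90), with PIGR last (9.43 ± 0.44). Neighbours in the order were further apart than the sum of their SDs in SCC15 and in SCC25, except MUC1 (10.3 ± 0.66) and PIGR in SCC25. With squamocin, the neighbours not apart by that measure were PI3 and SLPI (1682 ± 445 and 1364 ± 445), CFB and C3 (84.3 ± 30.8 and 55.3 ± 15.4) and SAA1 and MUC1 (17.9 ± 6.17 and 12.1 ± 0.49) in SCC15. In SCC25, they were SAA2 (21.5 ± 1.94), C3 (17.8 ± 2.29) and PI3 (17.0 ± 3.93), each with the next. The SDs cover the spread between libraries only. The order also depends on the merged exon length, which can exceed that of the transcript expressed. It was 1062 bases for SAA1 and 2242 for its near-identical copy SAA2. Orders under other lengths were not computed.

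The genes around the members were taken from 9 lists. Over all genes tested, 30.9% were called higher and 30.0% lower in SCC15, and 38.3% and 38.5% in SCC25. The counts below, and those of the cell type markers, are to be read beside these shares. No list was tested as a set. In the list of acute-phase proteins, 2 of 7 genes tested rose and 3 fell in SCC15 (2 and 5 with equal library totals), and 2 of 8 rose and 6 fell in SCC25. The medians of its log2 fold changes were -0.44 and -1.40, beside 0.01 and -0.01 over all genes tested. PTX3, a soluble pattern-recognition pentraxin, rose in both lines, by 1.85 ± 0.19 and 3.07 ± 0.08 on the log2 scale (limma adjusted p = 0.000225 and 5.03e-12). STEAP4, a metalloreductase, fell by 3.05 ± 0.08 in SCC15 and by 1.76 ± 0.30 in SCC25. In SCC25, the protease inhibitor SERPINA3 fell by 5.19 ± 0.21 on the log2 scale, from a mean of 252 normalized counts, and CD14, a co-receptor for lipopolysaccharide, fell by 5.98 ± 0.26, from 351.

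Of the complement components, 2 of 9 tested rose and 3 fell in SCC15 (1 and 5 with equal totals), and 2 of 10 rose and 8 fell in SCC25 (1 and 8), with medians of -0.05 and -1.30. C1R, a protease of the first component, rose from 3587 ± 117 to 4823 ± 633 in SCC15 (limma adjusted p = 0.0129), where its log2 fold change of 0.42 was -0.08 with equal totals, and fell from 4883 ± 111 to 2358 ± 136 in SCC25. The SCC15 call of C1R was lost without the second DMSO library (adjusted p = 0.0589). C1RL fell in both lines, by 1.25 ± 0.08 and 1.55 ± 0.05 on the log2 scale. C4A and C4B, near-identical copies whose counts are uncertain, fell in SCC25, by 2.23 ± 0.35 and 2.48 ± 0.35. Among complement regulators, 3 of 8 rose and 0 fell in SCC15 (1 and 2 with equal totals), and 5 of 12 rose and 5 fell in SCC25 (4 and 5), with medians of 0.17 and 0.19. CD55, which speeds the decay of C3 convertases, rose in both lines, from 5881 ± 70.1 to 13535 ± 2280 in SCC15 and from 392 ± 11.7 to 1123 ± 61.0 in SCC25.

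Of the mucosal antimicrobials, 1 of 8 tested rose and 3 fell in SCC15, and 1 of 13 rose and 10 fell in SCC25 (1 and 11 with equal totals), with medians of -0.30 and -2.32. The calprotectin subunits S100A8 and S100A9 fell in both lines. S100A9 went from 671 ± 68.7 to 140 ± 51.0 normalized counts in SCC15 and from 30042 ± 928 to 212 ± 30.2 in SCC25 (limma adjusted p = 0.000249 and 5.51e-15). The defensin DEFB1 rose in SCC15 from 63.9 ± 6.70 to 200 ± 109, and the antimicrobial ribonuclease RNASE7 rose in SCC25 from 521 ± 22.7 to 879 ± 76.0. Of the mucins and goblet-cell products, 1 of 6 rose and 3 fell in SCC15 (1 and 4), and 0 of 11 rose and 10 fell in SCC25, with medians of -1.44 and -2.22. The transmembrane mucin MUC16 fell in both lines, from 4653 ± 104 to 160 ± 26.5 in SCC25 and from 63.8 ± 11 to 6.19 ± 6.77 in SCC15. The SCC15 value of MUC16 was -4.35 without the first squamocin library and -2.98 without the third, on the log2 scale. MUC2, a gel-forming mucin, fell in SCC25 from 618 ± 25.5 to 8.89 ± 2.54.

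Among antiproteases and WAP proteins, 10 of 15 tested rose and 3 fell in SCC15 (8 and 3 with equal totals), and 8 of 14 rose and 4 fell in SCC25 (8 and 5), with medians of 1.05 and 0.46. TIMP1, an inhibitor of metalloproteases, rose from 44452 ± 1047 to 149045 ± 50844 in SCC15 and from 684 ± 43.3 to 1687 ± 50.8 in SCC25. SERPINB2, an inhibitor of plasminogen activators, rose in SCC25 from 10.5 ± 3.25 to 400 ± 30.9. SERPINB1, which inhibits neutrophil proteases, fell in SCC25 from 5908 ± 10.6 to 1564 ± 78.2 and rose in SCC15 by 0.46 ± 0.14 on the log2 scale, where it was at -0.04 with equal totals. That call of SERPINB1 was lost without any 1 of the 3 DMSO libraries of SCC15 (limma adjusted p = 0.0616 to 0.0754).

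More genes were called higher than lower in the list of transcription factors and feedback genes. This list also holds inhibitors of the inducing signals, such as NFKBIA and SOCS1. In SCC15, 19 of 27 tested were higher and 2 lower (18 and 6 with equal totals). In SCC25, 19 of 28 were higher and 6 lower (17 and 8). The medians were 1.18 and 0.58. NFKBIA, the inhibitor of NF-κB and its own target, rose by 2.27 ± 0.14 in SCC15 and 2.40 ± 0.03 in SCC25 on the log2 scale (limma adjusted p = 2.75e-05 and 3.10e-14), with a difference of -0.13 ± 0.15 (adjusted p = 0.486). The difference for NFKBIA was -0.28 and was called without the third squamocin library of SCC15 (adjusted p = 0.000152). CEBPB rose by 2.04 ± 0.18 and 3.01 ± 0.04, and SOCS1, a feedback inhibitor of JAK signalling, by 4.58 ± 0.15 and 4.36 ± 0.06. NFKBIZ, a co-activator needed for LCN2 and other late NF-κB targets, rose in SCC15 from 2895 ± 22.6 to 7805 ± 446 and went from 9923 ± 145 to 9108 ± 518 in SCC25, where the log2 value fell by 0.13 ± 0.04 (adjusted p = 0.0205). The SCC25 call of NFKBIZ was lost in 4 of 6 omissions of a single library, the first and second of either treatment (adjusted p = 0.0544 to 0.0827). ELF3, an epithelial ETS factor, rose from 35.0 ± 5.33 to 379 ± 48.3 in SCC15 and by 0.22 ± 0.06 on the log2 scale in SCC25. The related factor EHF fell in SCC15 from 1032 ± 77.6 to 172 ± 19.6 and differed by 0.14 ± 0.05 in SCC25, where its sign turned with equal totals and its call was lost in 5 of 6 omissions of a single library (adjusted p = 0.0567 to 0.124), all but the third squamocin library. STAT3 was at 4292 ± 122 and 4066 ± 430 in SCC15 (adjusted p = 0.503) and fell by 0.22 ± 0.04 in SCC25. The difference of the STAT3 responses was called in 1 of 12 omissions of a single library, that of the third squamocin library of SCC15 (0.23, adjusted p = 0.00159).

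Of the inducing cytokines and receptors, 9 of 25 tested rose and 9 fell in SCC15 (6 and 13 with equal totals), and 11 of 31 rose and 13 fell in SCC25 (10 and 14), with medians of -0.04 and 0.04. TNF rose from 1.39 ± 0.45 to 54.7 ± 15.2 normalized counts in SCC15 and from 1020 ± 57.3 to 8333 ± 304 in SCC25. Its DMSO mean in SCC15 lies below the floor of 3 reads, which is 2.37 to 2.62 normalized counts in those libraries. Depth therefore limits the size of that rise. LIF, of the interleukin-6 family, rose in both lines, by 3.28 ± 0.09 and 1.67 ± 0.05. IL1B rose in SCC15 from 355 ± 6.26 to 1019 ± 276 and fell in SCC25 from 8220 ± 84.7 to 5148 ± 164, and IL1A did likewise. IL6 went the other way, falling from 5490 ± 181 to 3510 ± 1016 in SCC15 and rising from 75.2 ± 9.13 to 374 ± 41.6 in SCC25. The SCC15 call of IL6 was lost without the second squamocin library (limma adjusted p = 0.0507) and without the second DMSO library (0.0536). Of the partners, receptors and sheddases of the members, 5 of 16 rose and 4 fell in SCC15 (3 and 8 with equal totals), and 4 of 18 rose and 12 fell in SCC25 (3 and 14), with medians of 0.06 and -0.47. Over all lists, the log2 fold changes of 75 of the 109 genes tested in both lines differed between them, where 52.2% of all 14454 genes did.

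**Figure D4:**
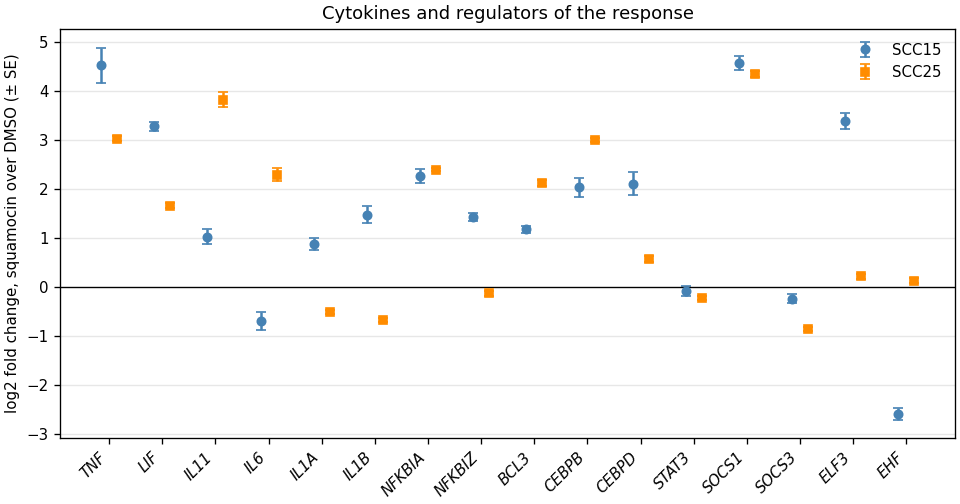
Log2 fold change of squamocin over DMSO, with SE, for cytokines and regulators of the response in SCC15 (blue circles) and SCC25 (orange squares). TNF, LIF, NFKBIA, CEBPB and SOCS1 lie above 0 in both lines, while IL1A, IL1B and NFKBIZ lie above 0 in SCC15 and below 0 in SCC25, and IL6 the reverse.

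The protein-coding genes most like each member were taken by Pearson's r over the 12 libraries, after the DMSO mean of each line was subtracted, among 9698 genes with a mean of at least 100 in both tables. The profile is largely set by 2 fold changes, so that high values are common. Pearson's r does not measure the size of the changes, which could be smaller or larger than those of the member. IFNGR1 had log2 fold changes of -0.79 in SCC15 and -0.66 in SCC25, where LRG1 had -3.69 and -2.65. DHRS3 had 1.31 and -1.97, where LCN2 had 1.11 and -1.54. LCN2 was most like DHRS3 (r = 0.997) and SERINC2 (0.995), SLPI most like ENO1 (0.998) and TNNT1 (0.998), and PI3 most like SDF4 (0.992) and CTSZ (0.991). C3 was most like ITGA1 and JRK (both 0.997), CFB most like PAXBP1 (0.994) and CDK5RAP3 (0.993), and LRG1 most like IFNGR1 (0.994) and EMP2 (0.993). SAA1 was nearest to TRADD (0.987) and RARRES3 (0.979), SAA2 to TST (0.986) and B3GALT6 (0.986), and MUC1 to MBD3 (0.955) and PTRH2 (0.948).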

How the data were processed

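Total RNA of SCC15 and SCC25 cells was sequenced by the authors after 24 h with squamocin or DMSO. Alignment by the authors used HISAT2 v2.0.5 and GRCh38, and genes were counted with featureCounts v1.5.0-p3. The annotation release, the strand setting and the treatment of reads with several matches are not given in the sources used here. The signal deposited for a gene is its read count over a size factor of that library. The factors were set separately for either line, so levels were tested within a table. The tables of the authors also hold their group means and the fold changes and p-values of their own comparison, none of which was used. The SCC25 columns carry the name FPKM but hold the same kind of value. After multiplication by the recovered factors, 100% of values were whole reads in every library (tolerance 0.01), and 3 reads per library were taken as the floor. Such floors and counting intervals cover counting error only.

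Genes whose mean reached 10 were fitted on log2(normalized count + 1) in limma 3.58.1 (R 4.3.3), with a trended prior variance. Tests were two-sided, with Benjamini-Hochberg adjustment across each line's tested genes and a threshold of 0.05. The difference between the lines was a contrast of the 4 group means over 14454 genes. The scripts were tested on simulated data. Alternatives were pseudocounts of 0.1 and 10, no filter, a mean of at least 50, equal library totals, TMM factors, count tests of the recovered reads by edgeR 4.0.16 or DESeq2 1.42.0, a block for replicate number, and the omission of single libraries. Nothing in the labels says that replicates were separate cultures, so p-values measure the spread between these libraries, which may be technical.

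The members and the gene lists were chosen with earlier results of these data known. The p-values of list genes are therefore to be read as descriptive, most of all for genes named as the largest changes. Named besides the members were 30 genes fixed by name, in each list and line the 2 largest rises and 2 largest falls among called genes whose mean reached 50 and whose treatments did not overlap, the 2 genes most like each member, and genes that overlap or neighbour the members in the WFDC and SAA clusters. Some genes that this rule names are not reported here. Of 308 list entries, 35 were not matched by name. Results for fibroblast, endothelial and simple epithelial markers, of which 5, 1 and 7 genes were tested in SCC15 and 3, 3 and 8 in SCC25, were 0, 0 and 3 higher and 2, 1 and 1 lower in SCC15, and 1, 0 and 4 higher and 0, 3 and 3 lower in SCC25. For squamous markers, 4 were higher and 0 lower in SCC15, and 6 and 4 in SCC25.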

Additional observations from a re-analysis of the deposited data

Results flagged for a closer look

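Among the members, every squamocin library lay above every DMSO library in SCC15 and below every one in SCC25 for LCN2, SLPI and PI3. Over all genes tested, the libraries of the treatments did not overlap, in either direction, for 70.6% in SCC15 and 79.0% in SCC25. The share of all genes that did so in opposite directions in the lines was not computed. The log2 fold change in SCC15 minus that in SCC25 was 2.65 for LCN2, 3.14 for SLPI and 2.26 for PI3, and since these genes were chosen on this contrast no test is given. The cause of the opposite directions was not tested.

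For the other genes fixed by name, the difference of the log2 fold changes (SCC15 minus SCC25) passed an adjusted p of 0.05 by limma in those given here. It was positive for ELF3 (3.18), SERPINB1 (2.37), WFDC2 (2.21), IL1B (2.16), NFKBIZ (1.55), CEBPD (1.54), C1R (1.47), IL1A (1.39), SOCS3 (0.626), SERPINA1 (0.589) and C1S (0.549). It was negative for IL6 (-2.98), EHF (-2.72), CEBPB (-0.971) and BCL3 (-0.947). The call of SERPINA1 was lost in 4 of 12 omissions of a single library (adjusted p = 0.0519 to 0.0597), namely the first DMSO library of SCC15 and, in SCC25, the first and second squamocin and the second DMSO library. Over all 14454 genes tested, 52.2% passed that threshold.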

How the results depend on the processing

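The 9 members called lower and the 1 called higher in SCC25, and the 4 called higher in SCC15, kept those counts under every alternative. The count of members called lower in SCC15 was 2 and became 5 with equal library totals and also 5 without the third squamocin library, in both cases by adding SAA1, C3 and MUC1; over the libraries left out it ranged from 2 to 5. The list genes called lower in SCC15 went from 30 to 48 with equal totals. With equal totals the log2 fold change in SCC15 turned sign for C1R (-0.0782), C1S (-0.393), CD46 (-0.459) and SERPINB1 (-0.042), and that of EHF in SCC25 (-0.0709), as did the response difference of STAT3 (-0.15) and C2 (-0.186). CD46 in SCC15 was also at -0.00412 with TMM factors and -0.00387 with edgeR. Over the libraries left out, the sign turned for SAA1 (-0.514 to 0.0684), SERPING1 (-0.525 to 0.0254) and STAT3 (-0.139 to 0.00695) in SCC15, TGFBR2 in SCC25 (-0.161 to 0.00138) and the response difference of C2 (-0.045 to 0.197), none of them called in the reported fit. Replicate numbers did not pair the libraries: same-numbered libraries correlated at -0.05 to 0.01 in their deviations. With the replicate block, genes called went from 9694 to 9116 in SCC15 and from 12702 to 12611 in SCC25, and the calls of the members did not change. At 10 to 21 reads for LRG1 in SCC15 and 1 to 5 for PIGR in SCC25, depth limits the size of the fold changes.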
